A study of Saccharomyces cerevisiae with 26 samples.

Results

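The comparison described here is the step from the reductive charging phase (RC, time point 5) to the early oxidative phase (early OX, time point 1) of the yeast metabolic cycle in cells that carry the TAF14[W81A] mutation. For each gene the level at time point 1 was set against the level at time point 5. The step rests on 4 of the 26 samples of the series and on 4 of its 20 RNA samples, with 2 replicate RNA libraries at each of the 2 time points. The same step in wild type, with 4 RNA samples, served as the point of reference. Both genotypes are budding yeast of the CEN.PK strain, a laboratory strain used for work on metabolism, grown in continuous culture until oxygen use cycled. The mutant group differs from wild type, per the labels, by the TAF14[W81A] allele alone. Whether it is 1 clone, and whether the 2 replicates of a group came from separate cultures, is not given in the sources used here, so the p-values below measure only the spread between replicate libraries. Nor do the sources say whether the samples of time points 1 and 5 came from the same turn of the cycle.

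In a nutrient-limited culture yeast cells pass together through repeated cycles of respiration. In RC they respire little and hold stores of trehalose and glycogen, and stress and fat-burning genes are active, while in OX they respire fast and make ribosomes and amino acids. TAF14 is a small protein shared by the transcription factors TFIID and TFIIF and the chromatin complexes SWI/SNF, INO80 and NuA3. Its YEATS domain binds acetylated and crotonylated histone lysines, and the mutated tryptophan lies in the pocket that holds the acyl group.

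The deposited table gives 1 log2 level per gene, genotype and time point, in which the 2 libraries are already combined. The whole reads of the 2 libraries were recovered from the decimals of these levels for 5966 of 6008 genes, as described in the processing section. In genes with a single solution in every group the mutant libraries held 2252797 and 3193211 reads at time point 1 and 2379715 and 3742780 at time point 5. Values below are scaled reads, that is, reads on the authors' scaling between libraries. A log2 change is the difference of log2(scaled reads + 1) between time points 1 and 5 and is given ± its SE, with n = 2 libraries per time point. The SE uses the spread between replicates pooled by limma over all 20 RNA libraries in 10 groups, not the compared libraries alone. A gene is called, or said to rise or fall, when its Benjamini-Hochberg adjusted p from limma over all 5966 genes is under 0.05. For some strongly expressed genes the reads of a group had several solutions, so only the group's mean entered the fit and no library value is given. Of the genes named below this holds in early OX for RPL9A, YEF3, SHM2, LYS9, ASN1 and MET3, and in RC for ERG6, SSA3, CTA1, POX1, CYB2, ADY2, JEN1, GLK1, ADH2, HXK1, HXT6, CIT3, ACS1, HSP12 and CTS1. The recovered libraries carry no replicate letter, so they are numbered within their group and cannot be matched between groups.

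The 2 mutant libraries of RC lay closer to each other than those of early OX. The median SD of a gene between the 2 libraries was 0.0513 (log2) in RC and 0.0941 in early OX. Across genes, the difference between the 2 early OX libraries ran against the wild-type change over the same step (Pearson r = -0.389, slope -0.0729, 5871 genes, a description), so library 2 stood slightly nearer to RC than library 1. The RC libraries showed no such tilt (r = -0.0206). In wild type the tilt at early OX was larger (r = -0.549, slope -0.156), and so was the median SD (0.126). Outside early OX the median SD of the groups in both genotypes was 0.0513 to 0.0732. The pooled SE may therefore understate the spread of comparisons with early OX.

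The step changed most of the transcriptome. Of the 5966 genes, 4717 were called (79.1%), 2410 of them higher in early OX (40.4%) and 2307 lower (38.7%). A change of at least 2-fold was called for 1175 genes that rose (19.7%) and for 1040 that fell (17.4%). Counts within gene lists below are to be read against these shares. Changes of at least 16-fold were more often falls than rises, with 44 genes against 19. The median change of all genes was 0.03. The balance of rises and falls depends on the scaling between libraries. Under upper-quartile scaling 1965 genes rose and 2749 fell, with a median of -0.18. Among called genes with known reads in all 4 libraries, the libraries of the 2 time points did not overlap for 4528 genes and overlapped for 2. These genes were called from the same libraries, so the count is no separate support for the calls. In RNA from a whole culture, a shift in the share of cells of one kind and a shift in RNA per cell cannot be told apart.

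The genes that moved at least 2-fold were chosen by their early OX and RC means. Their place in the whole mutant cycle was thus partly set by that choice. Over all 5966 genes tested, 2273 had their highest mean of the 5 time points at early OX and 2120 their lowest. Of the 1175 genes that rose at least 2-fold, 1114 (94.8%) had their highest mean of the 5 time points at early OX. Their lowest mean fell less often in RC itself, in 252 genes, than in the late reductive building phase (time point 4), in 635. Of the 1040 that fell at least 2-fold, 873 (83.9%) had their lowest mean at early OX and another 159 at late OX. Their highest mean was at time point 4 for 546 and in RC for 351.

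Genes were ranked if they were called, bore a standard name, averaged 50 scaled reads or more and had no overlap between the libraries of RC and early OX. The 12 largest rises were led by AAH1, the adenine deaminase of purine salvage (YNL141W, chromosome XIV, 359596 to 360639 in RefSeq R64). Its libraries held 10109 and 8676 scaled reads in early OX and 127 and 146 in RC. The early OX libraries were therefore far above those of RC, with a log2 change of 6.09 ± 0.12 (limma adjusted p = 4.35e-15), above every other gene tested. At time points 2, 3 and 4 its mean stayed near the RC level, between 7.03 and 7.39 on the log2 scale against 13.19 at time point 1. DBP2, an RNA helicase gene of ribosome assembly and RNA handling, rose from 119 and 125 to 6815 and 6921 (5.81 ± 0.15). NSR1, which encodes a nucleolar protein needed for pre-rRNA processing, rose from 109 and 136 to 5821 and 5339 (5.51 ± 0.21). In all of these genes the early OX libraries lay close together, and the rise was 45.4-fold in NSR1, 55.9-fold in DBP2 and 68.3-fold in AAH1.

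The others of the 12 had mixed roles. AQR1 encodes a plasma membrane exporter and rose by 5.43 ± 0.27. PRM7 and BSC1 lie next to each other on chromosome IV (381985 to 384081 and 384601 to 385587) and rose by 5.26 ± 0.15 and 5.17 ± 0.27. IMD4, an IMP dehydrogenase gene of GTP synthesis, rose by 4.86 ± 0.15. It shares its position with the snoRNA gene SNR54 and is close in sequence to IMD3, so its reads are uncertain. The glycerol-3-phosphatase genes GPP1 and GPP2, a closely related pair whose reads could be split between them, rose by 4.76 ± 0.09 and 4.59 ± 0.11. INA1 (5.18 ± 0.17), FSH1 (4.53 ± 0.16) and VID24 (4.46 ± 0.13), the last a factor in the breakdown of gluconeogenic enzymes, completed the group.

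The 12 largest falls were led by SPG1, a gene needed for survival in stationary phase (YGR236C, chromosome VII, 962530 to 962817). It had 22.7 and 26.3 scaled reads in early OX and 1609 and 1619 in RC, a change of -5.99 ± 0.36 (limma adjusted p = 1.40e-10), or 63.4-fold. TSL1, a regulatory subunit of trehalose synthase (YML100W, chromosome XIII, 70624 to 73920), went from 3591 and 3648 in RC to 69.6 and 100.3 in early OX (-5.42 ± 0.17). STF2, a hydrophilin gene linked to desiccation tolerance, went from 3648 and 3655 to 75.3 and 108. In each the RC libraries lay within a few percent of each other, and early OX library 2 lay above library 1. RTC3 fell by 5.04 ± 0.16 (log2) and FAT3, a fatty acid uptake gene, by 4.87 ± 0.30. MAL32, a maltase gene with a near-identical copy in MAL12, fell by 4.77 ± 0.11. COX26 of cytochrome oxidase fell by 4.69 ± 0.30, and the small heat shock protein gene HSP42 fell by 4.56 ± 0.24. PRR2, YIG1, PHM7 and BDH2 had changes of -4.53 to -4.45. BDH2, a putative butanediol dehydrogenase gene, had 24.2 scaled reads in 1 early OX library and 60.4 in the other, the widest gap among the 12 on the log scale. RGI2, named here after its value was seen, fell further than SPG1 (-6.66), but its RC reads had several solutions and it could not be ranked.

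**Figure D1:**
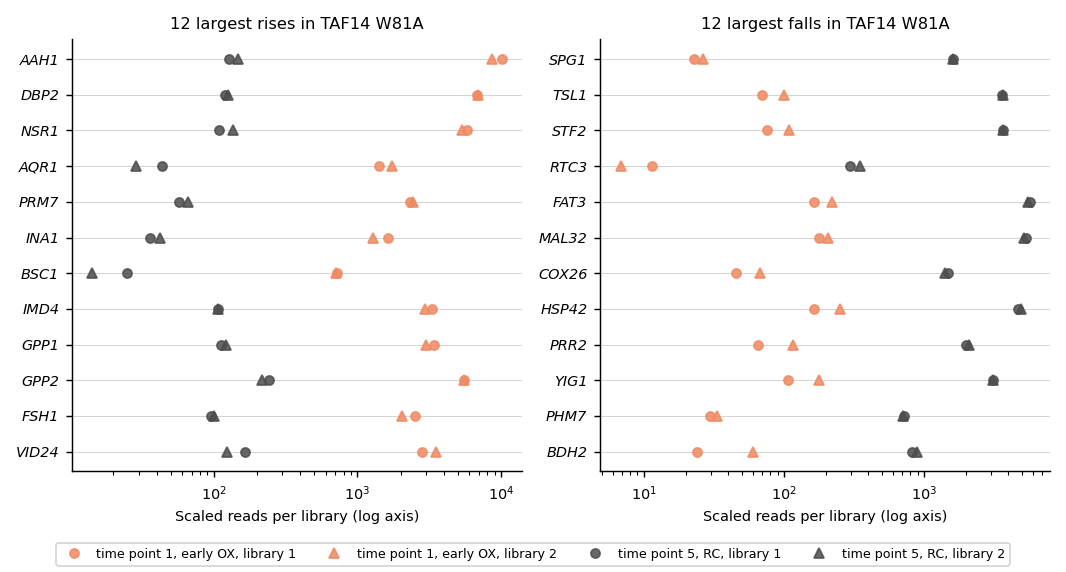
Scaled reads in each mutant library (log axis) for the 12 largest rises and the 12 largest falls from RC to early OX, with circles for library 1 and triangles for library 2. The libraries of the 2 time points stand far apart for every gene, from 127 and 146 to 10109 and 8676 for AAH1 and from 1609 and 1619 to 22.7 and 26.3 for SPG1.

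Genes that build ribosomes rose together. Of 66 tested genes of the small-subunit processome, which cuts and folds the pre-rRNA of the small subunit, 65 rose and none fell, with a median change of 2.84 against 0.03 for all genes. Of 73 genes of large-subunit assembly, 72 rose and none fell (median 2.87). After NSR1, the processome list was led by the helicase gene DHR2 (3.57 ± 0.39) and the snoRNP core protein gene NOP58 (3.53 ± 0.13). NOP58 went from 517 and 444 scaled reads in RC to 6098 and 5051 in early OX. In large-subunit assembly DBP2 was followed by CIC1 (3.72 ± 0.14) and MRT4 (3.69 ± 0.10). The median of both lists was higher in early OX library 1, at 2.93 and 2.97, than in library 2, at 2.74 and 2.76.

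The polymerases that make the RNA parts of ribosomes showed a divided picture. Of 37 genes of RNA polymerase I and III and their factors, 26 rose and 6 fell (median 1.52). The core subunit genes RPA12 (3.29 ± 0.24), RPA49 (3.14 ± 0.16) and RPA135 (2.98) and the polymerase I factor gene RRN11 (3.38 ± 0.15) rose. The 6 that fell were RRN5, TFC3, TFC1, TFC8, BRF1 and MAF1, with changes from -1.06 to -0.18. The TFC genes and BRF1 encode assembly factors of polymerase III and MAF1 encodes its repressor.

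Of 126 genes of cytosolic ribosomal proteins, 124 rose and none fell (median 1.81), and all 126 had their highest mean of the mutant cycle at early OX. RPL9A (3.05 ± 0.07), RPL22B (2.93 ± 0.11) and RPS26B (2.68 ± 0.11) rose most. RPL22B went from 379 and 368 scaled reads to 2954 and 2741. The 2 that were not called were RPL36B (0.29) and RPL25 (1.75). Most of these genes have a near-identical copy, so the division of reads within a pair is uncertain. Summed over the list, the authors' deposited levels per length came to 30.1% of the sum over all genes in early OX and to 9.97% in RC.

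The rest of the translation apparatus rose with them. All 19 aminoacyl-tRNA synthetase genes tested rose (median 1.47), led by the lysine enzyme gene KRS1 (3.18 ± 0.11), MES1 (2.17 ± 0.11) and WRS1 (2.16 ± 0.11). Of 34 translation factor genes 32 rose and 2 fell (median 1.54). The elongation factor gene YEF3 rose by 3.73 ± 0.07. The scaffold gene TIF4631 of the cap-binding complex rose by 2.20 ± 0.09. ANB1, the hypoxic form of eIF5A and nearly identical to HYP2, rose from 12.3 and 7.85 scaled reads to 58.3 and 50.7 (2.35 ± 0.38).

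Among 14 regulators of ribosomal genes, 8 rose and 4 fell (median 0.35). The co-activator gene IFH1 rose by 2.44 ± 0.16 and SFP1, an activator of ribosomal protein and ribosome assembly genes, by 0.67 ± 0.08. CRF1, a co-repressor of ribosomal protein genes, fell by 2.16 ± 0.19 (log2), from 398 and 426 scaled reads to 96.6 and 86.7. TOD6, a repressor of ribosome assembly genes, rose by 2.70 ± 0.14, against the direction of CRF1.

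**Figure D2:**
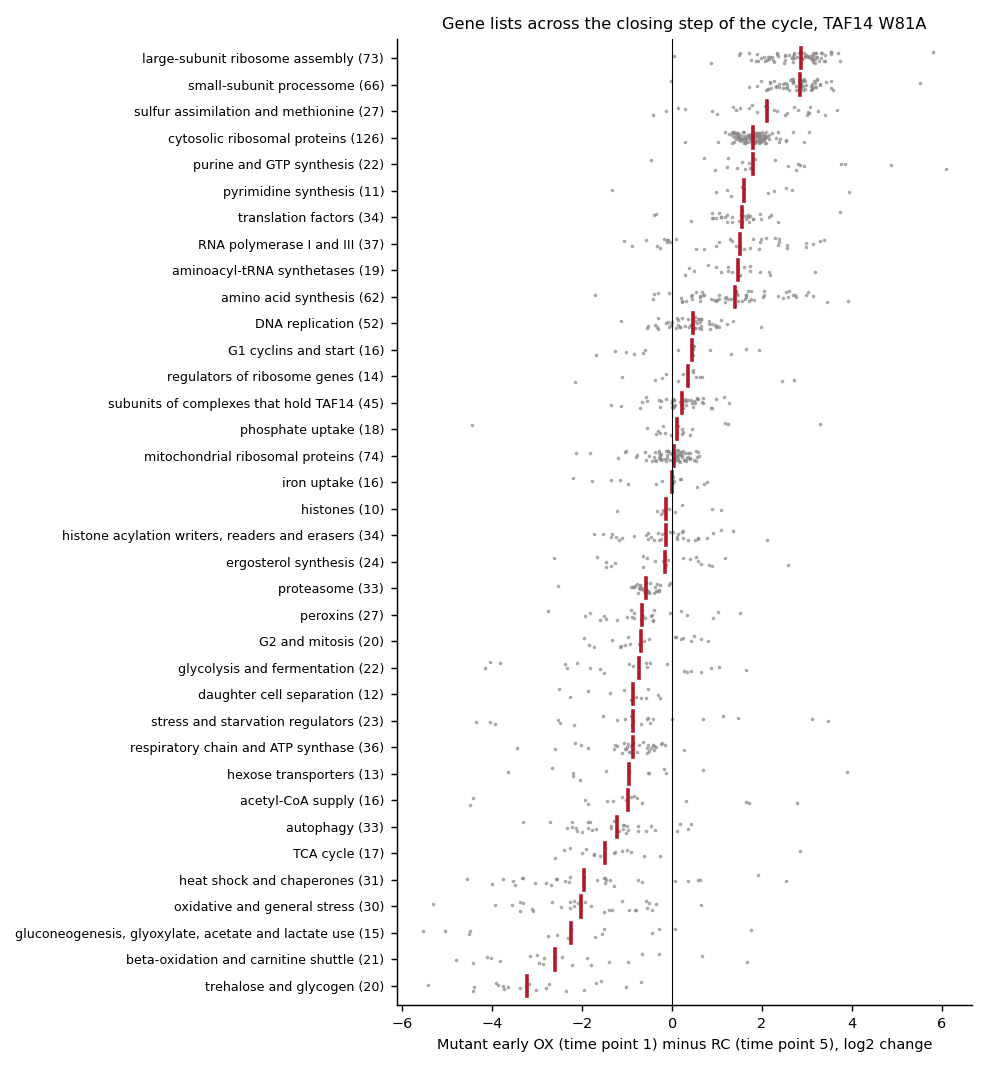
Log2 change from RC to early OX in the mutant for each tested member of 36 gene lists (grey points) with the list median (red bar), lists ordered by the median and the number of tested genes in parentheses. The medians run from -3.22 for trehalose and glycogen to 2.87 for large-subunit ribosome assembly, and single members lie outside the body of their list, as HXT4 does among the hexose transporters (3.88).

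Building blocks were the second group that rose. Of 22 purine and GTP genes 21 rose (median 1.80), with the serine hydroxymethyltransferase gene SHM2 (3.84 ± 0.11) after AAH1 and IMD4. Of 11 pyrimidine genes 10 rose (median 1.60). URA7, the CTP synthase gene, went from 387 and 344 scaled reads to 6094 and 5169 (3.94 ± 0.14), and the uracil permease gene FUR4 (2.67 ± 0.12) and URA1 (2.52 ± 0.12) rose as well. The exceptions that fell were ADE16 (-0.46) and URA10 (-1.34), the minor form of orotate phosphoribosyltransferase, while its major form URA5 rose by 1.56.

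Of 62 amino acid synthesis genes 57 rose and 4 fell (median 1.41). Lysine genes led, with LYS9 at 3.92 ± 0.09 and LYS1 at 3.44 ± 0.09, followed by the asparagine synthetase gene ASN1 at 3.13 ± 0.08. LYS1 had 530 and 492 scaled reads in RC and 6099 and 5067 in early OX. The 4 that fell were the cytosolic transaminase gene BAT2 (-1.71), ILV6, LEU4 and PRO3, whereas BAT1, the mitochondrial partner of BAT2, rose by 2.53. Of 27 genes of sulfur assimilation and methionine 23 rose and 1 fell (median 2.11). MET3, ATP sulfurylase and the first enzyme of the path, rose by 3.66 ± 0.10, the methionine permease gene MUP1 by 3.4 ± 0.15 and MET1 by 3.24 ± 0.20. The gene that fell was MET30 (-0.43), which encodes the ubiquitin ligase subunit that restrains MET4.

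Stress and storage genes fell. All 20 genes of trehalose and glycogen fell (median -3.22), the lowest median of the 36 lists. After TSL1, the largest changes were those of the branching enzyme gene GLC3 (-4.43 ± 0.31) and of GIP2, a phosphatase subunit gene (-4.40 ± 0.24). GLC3 went from 4291 and 4492 scaled reads in RC to 163 and 252 in early OX. The trehalose-breaking enzyme gene NTH1 changed least (-0.70). Enzymes of synthesis and of breakdown fell alike, among them the glycogen synthase genes GSY1 (-3.76) and GSY2 (-3.25) and the phosphorylase gene GPH1 (-2.75).

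Of 31 genes of heat shock and chaperones 25 fell and 5 rose (median -1.97). BTN2 (-4.00 ± 0.10), the disaggregase gene HSP104 (-3.53) and the HSP70 gene SSA3 (-3.75 ± 0.19) followed HSP42. HSP12, a membrane-protecting protein of stationary phase, fell by 3.04 ± 0.14 (log2). The chaperones that sit on the ribosome moved the other way, with SSB1 up by 2.54 and SSB2 by 1.91. SSB1 and SSB2 are near-identical, so their separate values are uncertain. Among 30 genes of oxidative and general stress 28 fell and 1, GPX2 (0.64), rose (median -2.02). The peroxisomal catalase gene CTA1 had the largest fall (-5.32 ± 0.32), followed by the repressor gene XBP1 (-3.93 ± 0.27) and the aldose reductase gene GRE3 (-3.56 ± 0.10). GRE3 had 1725 and 1792 scaled reads in RC and 136 and 161 in early OX.

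Signalling genes of the stress response moved in both directions. Of 23 regulators of stress and starvation 17 fell and 5 rose (median -0.88). Among genes of protein kinase A, the catalytic subunit gene TPK2 changed by -2.50, while its paralog TPK3 rose by 1.45. RAS1, which activates adenylate cyclase, rose by 3.11, while RAS2 changed by -0.48, and the cAMP phosphodiesterase gene PDE2 rose by 3.47. The stress regulator genes MSN2 (-0.43) and MSN4 (-0.53) fell by far less, as did HSF1 (-0.89).

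Genes that burn fat and two-carbon fuels fell. Of 21 genes of beta-oxidation and the carnitine shuttle 19 fell and 2 rose (median -2.59). POX1, the first enzyme of beta-oxidation, changed by -4.81 ± 0.41 and the peroxisomal importer genes PXA1 and PXA2 by -4.42 ± 0.30 and -4.12 ± 0.37. PXA1 had 4376 and 4270 scaled reads in RC and 161 and 251 in early OX. Of 27 peroxin genes 21 fell and 5 rose (median -0.67), with PEX18 (-2.76 ± 0.21), PEX22 (-1.94 ± 0.16) and PEX11 (-1.82 ± 0.11) at the front. Of 15 genes of gluconeogenesis, the glyoxylate cycle and acetate and lactate use 11 fell and 1 rose (median -2.24). The lactate dehydrogenase gene CYB2 (-5.54 ± 0.25), the acetate transporter gene ADY2 (-5.05 ± 0.34) and the lactate transporter gene JEN1 (-4.51 ± 0.47) fell most.

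Of 16 genes of acetyl-CoA supply 12 fell and 4 rose (median -0.97). The acetyl-CoA synthetase gene ACS1 changed by -4.50 ± 0.32, and its partner ACS2, which serves the nucleus and cytosol, by -0.92 ± 0.06. MPC3, the respiratory form of the mitochondrial pyruvate carrier, changed by -4.43 ± 0.27 while MPC2, its fermentative counterpart, rose by 1.71. The mitochondrial aldehyde dehydrogenase gene ALD5 rose by 2.77 ± 0.10.

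Genes of respiration fell as well. Of 17 TCA cycle genes 15 fell (median -1.50), with CIT3 (-2.60 ± 0.25) and MDH1 (-2.41 ± 0.09) at the front. Of 36 genes of the respiratory chain and ATP synthase 35 fell and 1 rose (median -0.88). The external NADH dehydrogenase gene NDE2 (-3.44 ± 0.22) and the cytochrome c genes CYC7 (-2.60 ± 0.27) and CYC1 (-2.16 ± 0.08) fell most. Mitochondrial ribosomal protein genes had no common direction: of 74, 19 rose and 23 fell (median 0.03), and 35 fell under upper-quartile scaling. Their means peaked at time point 3 in 55 and at time point 4 in 15. Among the genes placed in this list, MRP8 (-2.15 ± 0.16), EHD3 (-1.82 ± 0.11) and MRP20 (-1.21 ± 0.10) had the largest changes. Whether each of them encodes a part of the mitochondrial ribosome was not checked here.

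Sugar uptake and glycolysis divided by isoform. Of 22 genes of glycolysis and fermentation 14 fell and 7 rose (median -0.73). GLK1, a glucokinase gene whose position overlaps YCL042W, changed by -4.16 ± 0.20, the ethanol-using dehydrogenase gene ADH2 by -4.06 ± 0.17 and the hexokinase gene HXK1 by -3.83 ± 0.19. In contrast HXK2 rose by 0.86 and the main pyruvate decarboxylase gene PDC1 by 1.63. Of 13 hexose transporter and sensor genes 8 fell and 2 rose (median -0.96). HXT4 rose from 62.8 and 67.8 scaled reads to 950.5 and 996 (3.88 ± 0.15), while HXT5, a transporter gene of slow growth, fell from 2795 and 2687 to 188 and 250 (-3.66 ± 0.24). HXT6 (-2.68 ± 0.21) cannot be separated with certainty from its near-identical copy HXT7.

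Breakdown machinery also fell. Of 33 autophagy genes 29 fell and 2 rose (median -1.22), led by ATG7 (-3.32 ± 0.26), ATG39 (-2.72 ± 0.23) and ATG14 (-2.35 ± 0.23). Of 33 proteasome genes 31 fell and none rose (median -0.59). Their activator gene RPN4 changed by -2.54 ± 0.07, while subunit genes moved by less, RPN6 by -0.91 ± 0.06 and RPT1 by -0.87 ± 0.06. RPN4 had 2143 and 2230 scaled reads in RC and 347 and 405 in early OX.

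Cell cycle genes changed in both directions. Of 52 DNA replication genes 33 rose and 7 fell (median 0.47), with ORC3 (1.97 ± 0.12), POL30 (1.35 ± 0.16) and RFC4 (1.22 ± 0.12) at the front. Of 16 genes of the G1 cyclins and cell cycle start 9 rose and 6 fell (median 0.43). The cyclin gene PCL1 rose by 1.93 ± 0.12 and FAR1, an inhibitor of G1 kinase activity, by 1.64 ± 0.09. The S-phase inhibitor gene SIC1 fell by 1.70 ± 0.09 (log2). Of 20 genes of G2 and mitosis 12 fell and 5 rose (median -0.69), led by SWI5 (-1.95 ± 0.11), HOF1 (-1.84 ± 0.11) and the histone deacetylase gene HST3 (-1.73 ± 0.09). Of 10 histone genes 3 rose and 5 fell (median -0.13). HTB2 (1.08 ± 0.09) and HTA2 (0.88 ± 0.09) rose and the linker histone gene HHO1 changed by -1.23 ± 0.11. Histone copies share much of their sequence, so their separate values are uncertain.

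All 12 genes of daughter cell separation fell (median -0.86). These genes are read in the daughter cell after division and digest the wall that joins it to the mother. ASH1 went from 5173 and 4911 scaled reads to 865 and 886 (-2.52 ± 0.09) and DSE3 changed by -1.88 ± 0.10. The chitinase gene CTS1 fell by 0.81 ± 0.11 (log2).

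The remaining lists moved little or had no common direction. Of 24 ergosterol genes 9 rose and 11 fell (median -0.17). HMG1, an HMG-CoA reductase gene, went from 5791 and 5879 scaled reads to 962 and 937 (-2.62 ± 0.06), and ERG6 changed by -1.68 ± 0.11, while ERG4, the last step of the path, rose by 2.58 ± 0.07. Of 16 iron uptake genes 3 rose and 6 fell (median 0.00), with HMX1 (-2.20 ± 0.10), FRE2 (-1.79 ± 0.19) and FIT1 (-1.36 ± 0.24) at the front. Of 18 phosphate genes 6 rose and 4 fell (median 0.11). The low-affinity transporter gene PHO90 rose by 3.28 ± 0.19 and the vacuolar transporter gene PHO91 by 1.24 ± 0.09.

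TAF14 itself had 1044 and 983 scaled reads in early OX and 711 and 725 in RC, a rise of 0.50 ± 0.06. The allele is a point mutation, so its RNA level checks no label. Of 45 tested subunits of the complexes that hold TAF14, TAF14 included, 24 rose and 9 fell (median 0.22). Under upper-quartile scaling 16 rose and 15 fell (median 0.02), so the lean to rises depends on the scaling. The TATA-binding protein gene SPT15 rose by 1.27 ± 0.11 and the INO80 subunit gene IES5 by 1.16 ± 0.11. The SWI/SNF subunit genes SNF11 (-1.35 ± 0.08), SWI1 (-1.13), SNF5 (-0.71) and SNF2 (-0.66) fell. Of 34 writers, readers and erasers of histone acylation 11 rose and 16 fell (median -0.14). ELP3, the catalytic subunit gene of Elongator, rose by 2.10 ± 0.10, the sirtuin gene HST2 changed by -1.54 ± 0.13 and the acetyltransferase gene GCN5 by -0.54 ± 0.10.

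**Figure D3:**
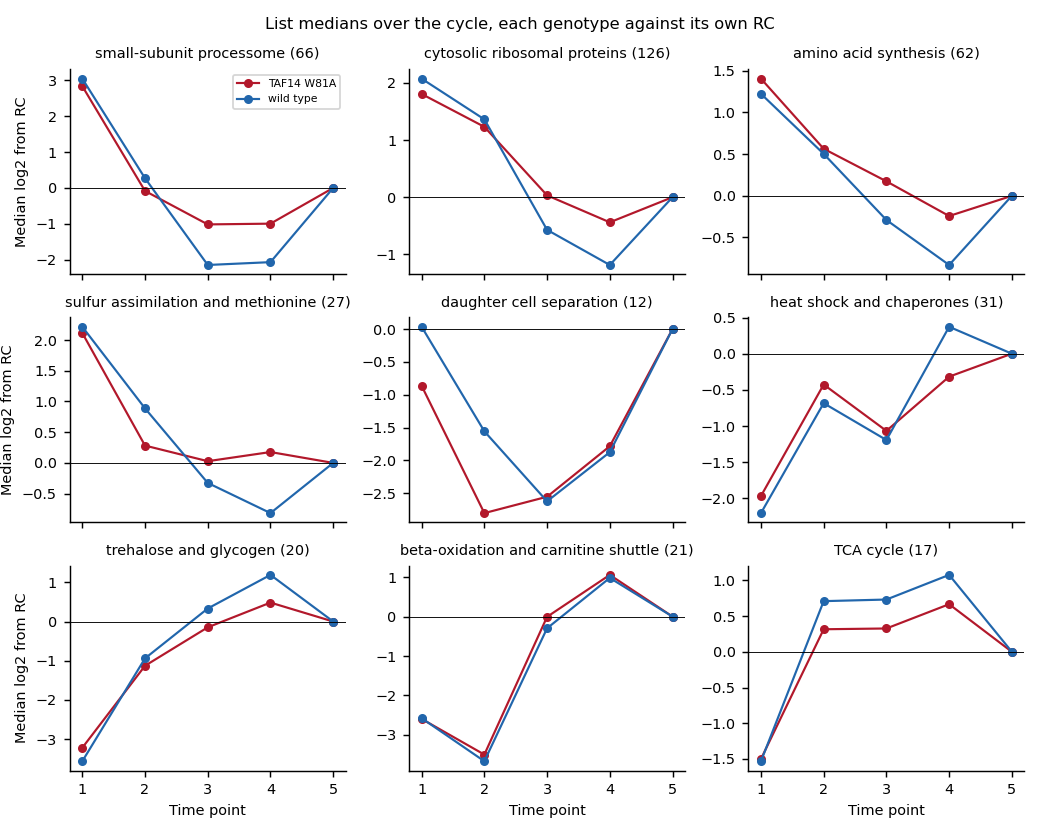
Median log2 level of 9 gene lists at each time point (1 and 2 OX, 3 and 4 reductive building, 5 RC), set to 0 at RC in each genotype, with the mutant in red, wild type in blue and the number of genes in parentheses. The step described here joins the last point to the first, from 0 to 2.84 for the small-subunit processome and from 0 to -3.22 for trehalose and glycogen in the mutant.

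The same step in wild type was close to that of the mutant. Wild type had 4757 called genes (79.7%), 2457 higher in early OX (41.2%) and 2300 lower (38.6%). The changes of the 2 genotypes, which share no library, had a Pearson r of 0.965 across genes and a slope of 0.875 of mutant on wild type (5966 genes, a description, since genes are not independent). Of the 1175 genes that rose at least 2-fold in the mutant 1152 were also called higher in wild type, and of the 1040 that fell 1012 were also called lower. AAH1 was an example of a like rise, with 6.09 in the mutant and 5.97 in wild type and a 95% interval of the difference from -0.23 to 0.48. The median absolute change was 0.71 in the mutant and 0.76 in wild type.

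The difference between the genotypes' changes was tested gene by gene in the same limma model. It was called for 819 genes (13.7%), with 342 where the mutant change was higher (5.73%) and 477 where it was lower (8%). At least 2-fold differences were called for 43 (0.721%) and 74 (1.24%) of the genes in these directions. The absolute change was smaller in the mutant in 574 of the 819 and larger in 245. The matching split over all genes tested is not given here, so these counts have no background to be read against. Over all genes the median absolute change was also smaller in the mutant, at 0.71 against 0.76 in wild type. Whether the split of 574 and 245 holds with single libraries left out was not tested. In 51 genes both genotypes changed in opposite directions. The count of 819 depends on single libraries of both genotypes. It was 482 and 539 without wild-type RC library 1 or 2, 505 and 528 without mutant RC library 1 or 2, and 1261 without wild-type early OX library 2. It was 304 when the model held only the 8 libraries compared.

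PDC6 had the difference with the smallest adjusted p among the 16 genes named for it. It encodes a minor pyruvate decarboxylase that is used when sulfur is scarce (YGR087C, chromosome VII, 651290 to 652981). In the mutant it went from 252 and 270 scaled reads in RC to 175 and 181 in early OX, and in wild type from 204 and 235 to 1202 and 1140. It thus fell slightly in the mutant (-0.55 ± 0.10) and rose in wild type (2.41), a difference of -2.96 ± 0.13 (95% interval -3.25 to -2.68, limma adjusted p = 1.30e-09). In the authors' deposited table PDC6 was lower in the mutant at time point 1 (log2 fold change -2.47, adjusted p = 1.11e-39), and at time point 5 it had 0.21 (adjusted p = 0.337). Mutant PDC6 was highest at time point 4 (8.40, log2 scaled reads) and wild-type PDC6 at time point 1 (10.19).

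The gene next to PDC6 in the annotation, CTT1 for cytosolic catalase (YGR088W, chromosome VII, 654634 to 656322), had the largest difference in the other direction. It fell from 1444 and 1559 scaled reads to 53.0 and 107 in wild type and from 135 and 135 to 22.7 and 32.2 in the mutant. The change was -2.27 ± 0.28 in the mutant and -4.30 in wild type, a difference of 2.02 ± 0.39 (limma adjusted p = 0.00293). For CTT1 the contrast lay in RC, where the authors' deposited table had -3.30 (adjusted p = 3.77e-194), more than at time point 1 (-0.96, adjusted p = 0.0142). The difference in CTT1 was 1.52 without wild-type early OX library 1 and 2.52 without library 2.

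Other genes also differed at 1 end of the step more than at the other. The oligopeptide and glutathione transporter gene OPT1 rose in the mutant from 74.0 and 86.4 to 155 and 148 scaled reads and in wild type from 124 and 119 to 783 and 916 (difference -1.88 ± 0.17). The siderophore transporter gene ARN1 had 165 and 194 in mutant early OX against 180 and 167 in mutant RC, and these overlapped. In wild type ARN1 rose by 1.77, so the difference was -1.73 ± 0.17. The amino acid transporter gene AGP3 (-1.74 ± 0.17) and the adjacent allantoin genes DAL1 (-1.55 ± 0.29) and DAL4 (-1.51 ± 0.19) on chromosome IX had the same sign of difference. UTR2, a cell wall transglycosylase gene, differed by -1.52 ± 0.15. In that gene the contrast lay in RC, with 996 and 917 scaled reads in the mutant and 203 and 226 in wild type. ANS1 had the largest difference, -3.04 ± 0.77 (limma adjusted p = 0.0157), on 3.36 to 31.2 scaled reads in the mutant. It was no longer called when any 1 of 3 libraries was left out (mutant early OX library 1, mutant RC library 2 or wild-type RC library 1), with adjusted p-values from 0.0548 to 0.0719, while its size remained -2.68, -2.59 and -2.70.

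On the other side, SRY1, a 3-hydroxyaspartate dehydratase gene, differed by 1.98 ± 0.15. It had 161 and 153 scaled reads in mutant RC and 124 and 109 in mutant early OX, and fell from 247 and 284 to 50.6 and 47.4 in wild type. The cell wall gene SRL1 had 572 and 530 in mutant RC and 665 and 815 in mutant early OX, a rise of 0.42 ± 0.15 where wild type fell by 1.28 (log2). WSC4 had a like pattern, at 0.37 ± 0.16 against -1.09. Both mutant rises were lost under upper-quartile scaling, with adjusted p-values of 0.20 and 0.335. They were also lost with single mutant libraries left out. The SRL1 rise was 0.27 without early OX library 2 (limma adjusted p = 0.179) and 0.36 without RC library 2 (limma adjusted p = 0.0914). The WSC4 rise was 0.10 without early OX library 1 (limma adjusted p = 0.595), and without RC library 1 or 2 it was 0.34 and 0.41 (limma adjusted p = 0.142 and 0.0773). Both differences between the genotypes stayed called in each of these settings. IZH4 (1.79 ± 0.22), FMP45 (1.51 ± 0.29), USV1 (1.50 ± 0.33) and GIP2 (1.46 ± 0.34) fell in both genotypes and by less in the mutant. For USV1 and GIP2 the 2 wild-type early OX libraries lay apart, at 10.8 and 24.9 and at 38.6 and 85.9 scaled reads, below both mutant libraries. Without wild-type early OX library 1 the differences of USV1 and GIP2 were 0.94 and 0.90, and without library 2 they were 2.06 and 2.03.

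**Figure D4:**
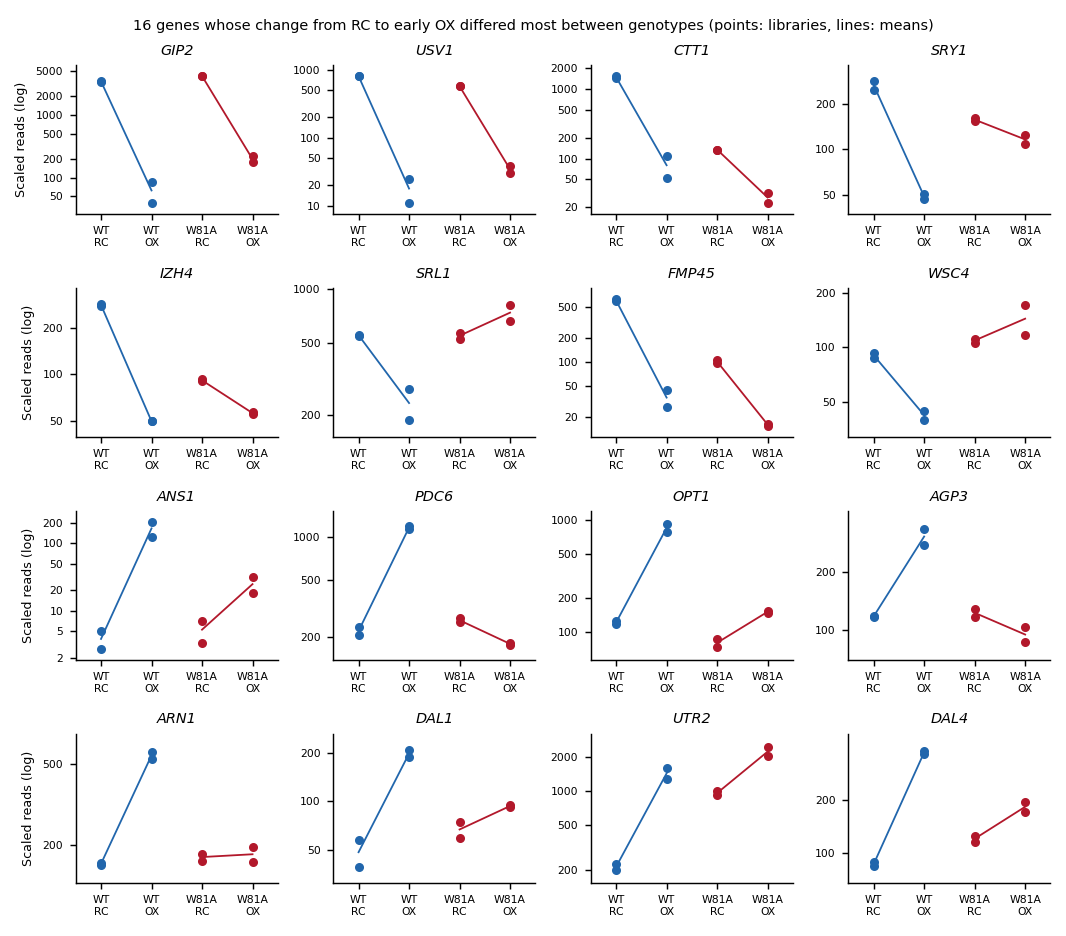
Scaled reads (log axis) in each library of RC and early OX, in wild type (blue) and TAF14[W81A] (red), for the 16 genes named for the difference between genotypes, with lines joining the means. PDC6, OPT1, AGP3 and ARN1 were apart in early OX, and CTT1, IZH4, FMP45 and UTR2 were further apart in RC.

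Of the 36 lists, daughter cell separation was the one in which the genotypes differed in the largest share of members. The mutant change was called lower than that of wild type for 10 of 12 genes, against 8% of all genes, and for none was it higher. One of those not called was CBK1 (-0.10, limma adjusted p = 0.537). The wild-type median was 0.03 against -0.86 in the mutant. DSE3 changed by -1.88 in the mutant and -0.72 in wild type, a difference of -1.16 ± 0.14. EGT2 changed by -1.38 and -0.07, CTS1 by -0.81 and 0.27, and DSE2 by -0.91 and 0.98. The count was 7 to 10 when single libraries were left out. The G1 cyclin gene CLN3, which starts the cell cycle, rose by 0.49 ± 0.10 in the mutant, from 346 and 358 scaled reads to 489 and 499, and by 1.50 in wild type (difference -1.01 ± 0.14, limma adjusted p = 0.000231). SIC1 differed by the same amount (-1.01 ± 0.13), and CLN2 rose by 0.84 against 1.95. Of the 16 genes of G1 cyclins and start 4 had a lower change in the mutant and none a higher one.

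Genes of cytosolic ribosomal proteins had a median change of 1.81 in the mutant against 2.07 in wild type. The mutant change was called lower for 32 of 126 genes, against 8% of all genes, and higher for 1, RPL41B. RPL36B was the gene with the widest gap, at 0.29 in the mutant and 2.27 in wild type. Without 1 of the wild-type early OX libraries separate values existed for 8 of the 126 genes, of which 0 and 3 were then called lower. Fewer ribosome assembly genes were called, with a lower change in the mutant for 5 of 66 processome genes and 3 of 73 of large-subunit assembly. These shares were no larger than the 8% of all genes, and no member had a higher change. The median differences of these 2 lists, -0.21 and -0.22, were nonetheless close to that of ribosomal proteins (-0.28), against -0.01 for all genes. By early OX library, the processome median was 3.16 and 2.88 in wild type and 2.93 and 2.74 in the mutant. For large-subunit assembly it was 3.11 and 2.79 in wild type and 2.97 and 2.76 in the mutant. In both lists wild-type library 2 thus lay between the mutant libraries, and wild-type library 1 alone lay above them. For translation factors the counts were 9 lower and none higher of 34, among them TIF4631 (-0.71 ± 0.13) and ANB1 (-2.09 ± 0.53). Wild-type early OX library 2 stood nearer to RC than library 1, and the part of this gap in the difference was not tested over the whole list, since so few ribosomal protein genes have separate values there.

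Amino acid synthesis had the opposite balance, with a median of 1.41 in the mutant and 1.22 in wild type. The mutant change was called higher for 16 of 62 genes, against 5.73% of all genes, and lower for 5. Of the 16, the arginine genes given here were chosen after their values were seen. ARG1 changed by 0.85 in the mutant and -0.16 in wild type, ARG3 by 1.05 and -0.17 and CPA1 by 1.45 and 0.63. All of these rose in the mutant, and in wild type CPA1 alone of these was called. The lysine genes LYS9 (0.60 ± 0.13), LYS1 (0.41 ± 0.13), LYS20 and LYS2 and the asparagine synthetase gene ASN1 (0.62 ± 0.11) also had a higher change in the mutant. With single libraries left out the count was 8 to 14. In sulfur metabolism 3 of 27 genes had a higher change in the mutant (MET5, STR3 and MET22) and 6 a lower one. The latter were SAM1 (3.04 against 4.30), SAM2, SAH1 (1.34 against 2.35), ADO1, CYS3 and MUP1, of which SAM1, SAM2, SAH1 and ADO1 act in the cycle that makes and uses S-adenosylmethionine.

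**Figure D5:**
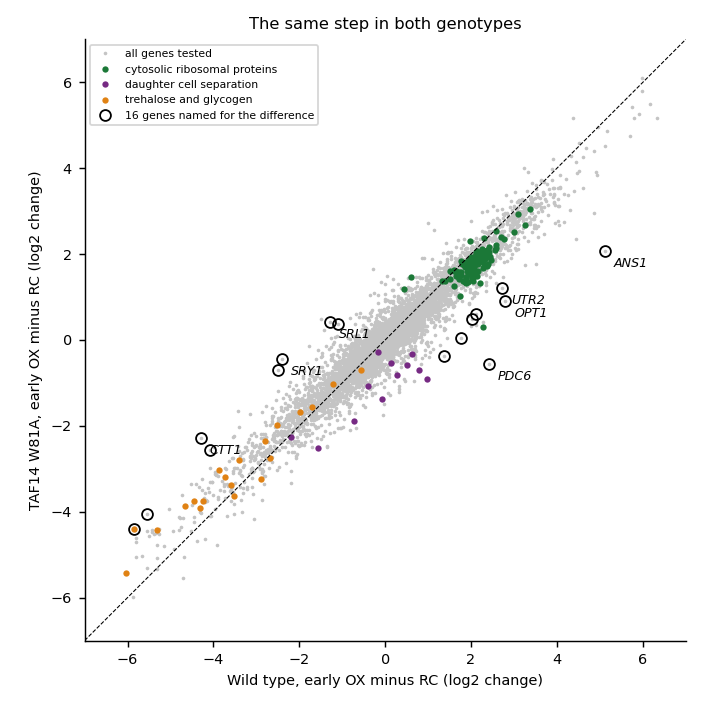
Log2 change from RC to early OX in TAF14[W81A] against the same change in wild type for 5966 genes (grey), with 3 gene lists in colour, the 16 genes named for the difference circled and the line of equal change dashed. Daughter cell separation genes lie below the line, ribosomal protein genes just below it (medians 1.81 and 2.07), and PDC6 sits at -0.55 in the mutant and 2.41 in wild type.

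For genes that fell in both genotypes the picture was mixed. The mutant change was called higher, that is, the fall was smaller, for 3 of 20 genes of trehalose and glycogen, 5 of 33 of autophagy and 6 of 33 of the proteasome, against 5.73% of all genes, and lower for none of them, against 8%. The proteasome count was 1 to 10 with single libraries left out, lowest without wild-type RC library 1 and highest without wild-type early OX library 2, and 10 under median-ratio scaling. Of 31 heat shock genes 5 had a higher change and 3 a lower one, and of 30 oxidative and general stress genes 4 had a higher change and 1 a lower one. For SPG1, TSL1 and POX1 no difference was called, with estimates of -0.12 ± 0.51, 0.62 ± 0.24 and 0.33 ± 0.58. A TAF14 difference was not called either (0.18 ± 0.09, limma adjusted p = 0.186).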

How the data were processed

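RNA was sequenced at 5 time points in 2 genotypes, with 2 libraries in each of 10 groups. Per the file headers, the deposited RNA table holds a log2 level of each gene in each genotype and time point, and, as the authors' own comparison of the genotypes, a log2 fold change with its adjusted p-value per time point. BWA, DESeq2, MACS2, deepTools and the build sacCer3 are named, without versions or roles, per the submitters' processing notes. The labels' protocols give a directional RNA kit, and whether counting used strand is not given in the sources used here. The ChIP table was not used here.

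Linear levels times gene length were solved as a weighted sum of 2 whole numbers, the reads of both libraries, with 1 weight per library and a tolerance of 1.15 times the rounding error. Of 6008 genes, 5438 were whole in all 10 groups at their RefSeq length and 544 at a searched length (100% multiples of 3), and 26 had none. With lengths shuffled between genes 1.06% were whole. As a control the search was run on 300 genes whose length is known. It gave 247 of them a length, and the right one in 247. The solution was unique in every group for 5428 genes. Depth per library is known only as reads summed over these, 2018893 to 3742780 in the 8 libraries compared. The lowest value recovered is 1 read, but the search allowed only values of at least 1. A count of 0 could not have been recovered, so whether such a floor applies was not tested.

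Scaled reads + 1 (pseudocount 1, no filter) were fitted on the log2 scale with limma 3.58.1 (trend) in R 4.3.3 and Python 3.11.15, with 20 libraries, 10 groups, and 10 residual and 6.01 prior degrees of freedom. Contrasts were time point 1 minus 5 in each genotype and their difference, two-sided. The fit was tested on simulated data. Fold changes of low genes are understated by the pseudocount. Alternatives were other scalings, pseudocounts of 0.5 and 8, a filter at 10 scaled reads, a fit on the compared groups alone and leaving out each library.

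The 36 gene lists, their members and the rule for named genes were chosen with earlier results of these data known. The rule took the 12 highest and 12 lowest changes among called genes that bore a standard name, averaged 50 scaled reads or more and did not overlap between the compared libraries, the 3 largest called members of each list (2 in lists under 10), the 8 highest and 8 lowest differences between genotypes, and 14 genes fixed by name. Other members are named as exceptions or paralogs after their values were seen. Promoter sequences were not analysed here. A few results are not reported here.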

Additional observations from a re-analysis of the deposited data

Results flagged for a closer look

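The genes below were picked out because the test of the difference itself, mutant change minus wild-type change from RC to early OX, was called (limma adjusted p under 0.05). No group could be checked for a stray sample, since each held 2 libraries. Among the 16 genes named for the difference, the log2 values were 2.02 for CTT1, 1.98 for SRY1, 1.79 for IZH4, 1.70 for SRL1, 1.51 for FMP45, 1.50 for USV1, 1.46 for GIP2 and 1.46 for WSC4. On the negative side they were -3.04 for ANS1, -2.96 for PDC6, -1.88 for OPT1, -1.74 for AGP3, -1.73 for ARN1, -1.55 for DAL1, -1.52 for UTR2 and -1.51 for DAL4.

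Among the genes named for their change in the mutant, 5 differed. The values were 0.79 for INA1, 1.10 for PHM7, -0.67 for PRM7, -0.94 for GPP1 and -0.86 for MAL32. In genes of growth they were -0.88 for RRN11, -0.58 for RPS26B, -2.09 for ANB1, -0.71 for TIF4631, -0.82 for FUR4, -0.76 for MUP1, -0.68 for TOD6, 0.89 for CRF1, 0.60 for LYS9, 0.41 for LYS1 and 0.62 for ASN1. In cell cycle and separation genes they were -1.01 for SIC1, -0.55 for FAR1, -1.01 for CLN3, -0.97 for ASH1, -1.16 for DSE3 and -1.08 for CTS1. The rest were -0.44 for HMG1, -0.88 for CYC1, -0.56 for PHO91, 0.70 for SNF11 and -0.31 for ACS2.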

How the results depend on the processing

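The total counts of genes called in each genotype and the changes of the leading genes kept their side under other pseudocounts, scalings and the low-value filter, apart from the cases given here. Upper-quartile scaling moved the median mutant change of all genes from 0.03 to -0.18. With it the genes called higher in the mutant went from 2410 to 1965 and those called lower from 2307 to 2749. Under this scaling 35 of 74 mitochondrial ribosomal protein genes fell, and the rises of SRL1, WSC4 and DAL1 were no longer called. Of the 45 subunits of complexes that hold TAF14, 16 then rose and 15 fell. The counts became 6 and 6 for the 16 genes of G1 cyclins and start, and 4 and 8 for the 18 phosphate genes. Under median-ratio scaling 10 proteasome genes had a higher change in the mutant. A fit on the compared groups alone called 304 differences, 115 higher and 189 lower, with 27 higher at least 2-fold, and the cause was not tested.

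With 1 library left out, the lone library is assumed to vary like the other groups, and genes with several solutions have no value, which lowers list counts. Differences then numbered 482 to 1261, 191 to 696 of them higher, 291 to 565 lower and 34 to 123 higher at least 2-fold. Members of lists higher in mutant early OX numbered 72 to 116 for ribosomal proteins and 15 to 22 for sulfur assimilation. Members lower numbered 3 to 4 for histones, 7 to 11 for gluconeogenesis and related paths, 5 to 12 for glycolysis, 8 to 15 for the TCA cycle and 22 to 29 for the respiratory chain. Members with a lower mutant than wild-type change numbered 0 to 36 for ribosomal proteins, and with a higher one 8 to 14 for amino acid synthesis and 1 to 10 for the proteasome. The SPG1 difference turned from -0.12 to 0.80 (adjusted p = 0.0246) without wild-type early OX library 2, and was -1.03 without library 1. No paired analysis was possible because the recovered libraries carry no replicate letter. Of the values of single named genes recomputed under all alternatives, 2785 kept their side of the threshold, 65 lost the call, 65 gained one and 72 without a call changed sign.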

Other observations

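The transcripts with the highest deposited levels per length changed between the phases in the mutant. In the authors' deposited table the 6 highest mutant levels in RC were those of HSP26 (16.14, log2), HSP12 (15.91), TDH3 (15.17), TMA10 (15.16), SPG4 (14.71) and FBA1 (14.67). Both HSP26 and HSP12 encode small stress proteins, and TDH3 and FBA1 are glycolytic genes. In early OX their levels were 12.57, 12.89, 13.44, 10.48, 11.59 and 14.19. FBA1 was thus the one of the 6 that kept nearly its level, and TMA10 the one with the largest drop.

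The 6 highest levels in early OX in the authors' deposited table included the pheromone gene MF(ALPHA)1 (15.45), YDR524W-C (15.08), the ubiquitin and ribosomal protein fusion gene RPS31 (14.60), the proton pump subunit gene PMP1 (14.51) and the cell wall gene CCW12 (14.50). CCW12 was at 14.34 in RC, while RPS31 was at 12.22. As shares of summed levels per length, the 31 tested heat shock and chaperone genes came to 4.14% in RC and 0.885% in early OX. HSP26 was not tested and is not in this sum. Trehalose and glycogen genes came to 0.293% and 0.033%. These levels are the authors' group values, with no spread of their own, and the genes were picked by their values.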
